A study of Canis lupus familiaris with 6 samples.

Results

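The genes described here are 9 that p53 is known to induce: CDKN1A, MDM2, BTG2, GADD45A, CCNG1, SESN1, SESN2, RRM2B and ZMAT3. They were chosen for the role of p53 in cell competition, and every non-control probe whose gene name in the array design equals one of them was read on all 6 arrays. This gave 17 probes of 43603. Of these, 15 probes, at least 1 for each of the 9 genes, had signal well above background throughout single culture, mix culture or both, and were tested among 26623 probes in all.

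The arrays came from MDCK, an established canine line of kidney epithelium. All 6 held RNA of β-cat ΔN/RasV12 cells, made from MDCK-pTR GFP-RasV12 by adding mCherry-β-catenin Δ131. They carry a stabilised β-catenin without its N-terminus, fused to mCherry and expressed throughout, and a GFP-tagged active Ras, RasV12, that appears when tetracycline is added. In single culture these cells were grown alone (3 arrays), and in mix culture they were grown with 10 β-cat ΔN neighbours for each of them (3 arrays). Both groups received tetracycline for 24 h, after which GFP-positive cells were sorted, so neighbours without RasV12 were to be left behind. The β-catenin mutant was stably introduced under an EF1 promoter and both groups carry it, as both carry RasV12; no group lacked either protein. Nothing in the labels says whether the replicates were separate cultures, and p-values then measure only the spread between these samples. The question put to these genes is whether the presence of β-cat ΔN neighbours goes with a different transcript level of p53 targets in the transformed cells.

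p53 is a transcription factor that is kept scarce in unstressed cells by the ubiquitin ligase MDM2 and is stabilised by DNA damage, oncogene activity and other stresses. Once active, it induces genes that halt the cell cycle, such as CDKN1A, whose product p21 inhibits cyclin-dependent kinases, and it also induces MDM2, which closes a negative feedback loop. In epithelia, differences in p53 activity between neighbouring cells are known to take part in cell competition, and in MDCK cells with a raised p53 level the elimination of such cells by their neighbours has been studied.

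The probes of MDM2 and BTG2, which with those of SESN1 had the higher values in mix culture, are shown first, with a CDKN1A probe for comparison. The MDM2 probe lies at chr10:10962430-10962489 (plus strand), BTG2 probe 1 at chr38:72915-72974 (plus strand), BTG2 probe 2 at chr38:72917-72976 (plus strand) and CDKN1A probe 1 at chr12:5752055-5752114 (plus strand), all on CanFam3.1 as the array design gives them. Each is 60 bases long, and the sequences are those of the deposited array design. The BTG2 probes are offset by 2 bases and share 58, with 1 mismatch in the shared stretch, C13T, counted from 1 at the 5′ end of probe 1; the capital marks that base. BTG2 probe 2 ends in a stop codon. The BTG2 probes therefore read nearly the same stretch of the same transcript and count as 1 measurement, not 2.
MDM2 probe 1: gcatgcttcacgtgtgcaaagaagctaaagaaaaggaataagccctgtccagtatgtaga
BTG2 probe 1: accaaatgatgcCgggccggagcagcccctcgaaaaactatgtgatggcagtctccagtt
BTG2 probe 2: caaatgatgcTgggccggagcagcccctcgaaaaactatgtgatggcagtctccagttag
CDKN1A probe 1: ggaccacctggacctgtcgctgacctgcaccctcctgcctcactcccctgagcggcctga

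Slide 1 held the arrays of replicate 1, and slide 2 held the other 4 arrays, with a different scan resolution and software version. On an array, 61.11% to 65.66% of spots exceeded background clearly, and no spot was saturated. The normalised log2 signal used below is log2 of the background-subtracted intensity minus the array's 75th percentile, and signals are compared between arrays for 1 probe, never between probes. Of the kidney tubule epithelium markers on the array, 9 of 9 were well above background on all 6 arrays, with a summed intensity of 122444 to 149807 in single culture and 110905 to 126497 in mix culture. Among fibroblast markers 2 of 7 were well above background on all 6 arrays, and PDGFRA, DCN and COL3A1 on none. The summed fibroblast intensity was 139 to 376 in single culture and 123 to 343 in mix culture. Of the leukocyte markers 3 of 6 were well above background throughout and PTPRC on no array, with summed intensities of 230.1 to 337 and 219 to 352. Of the endothelial markers 3 of 5 were well above background throughout and TEK on no array, with summed intensities of 918 to 2889 and 844 to 3350. None of these markers was called between the groups without a block. HRAS gave a difference of -0.62 (SE 0.28, limma adjusted p = 0.608, groups overlapping), and the 4 CTNNB1 probes gave 0.15 to 0.27 (limma adjusted p = 0.851 to 0.925); whether these probes read the introduced transcripts was not tested.

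None of the 15 tested probes of p53 target genes was called (adjusted p under 0.05) as different between mix culture and single culture. In the same limma fit, without a block, 235 of all 26623 probes were called, 0.883%, of which 217 (0.815%) were higher and 18 (0.0676%) lower in mix culture. At an unadjusted p under 0.05 there were 4 target gene probes (MDM2, both of BTG2 and SESN1 probe 4), where 8.71% of all tested probes had one. The two-sample test named in the study's methods was run on the normalised log2 signal used here, not on the authors' values. It called 0 of the 15 probes after Benjamini-Hochberg adjustment, and 8 of all tested probes. The groups did not overlap for 5 of the 15 target gene probes, all of them higher in mix culture and belonging to MDM2, BTG2 and SESN1. Of all tested probes 16.5% did not overlap, 7.85% with mix culture higher and 8.66% with it lower. The 4, the 5 and the 15 each include both BTG2 probes, which are 1 measurement. The other 10 probes, those of CDKN1A, GADD45A, CCNG1, SESN2, RRM2B and ZMAT3, had overlapping groups and differences below 0. The median difference over the 15 probes was -0.13, against -0.05 over all tested probes. With the slide as a block, MDM2 alone was called, where 7.2% of all tested probes were called, 3.98% as higher and 3.22% as lower. With the replicate number as a block none was called, where 5.25% of all were.

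**Figure D1:**
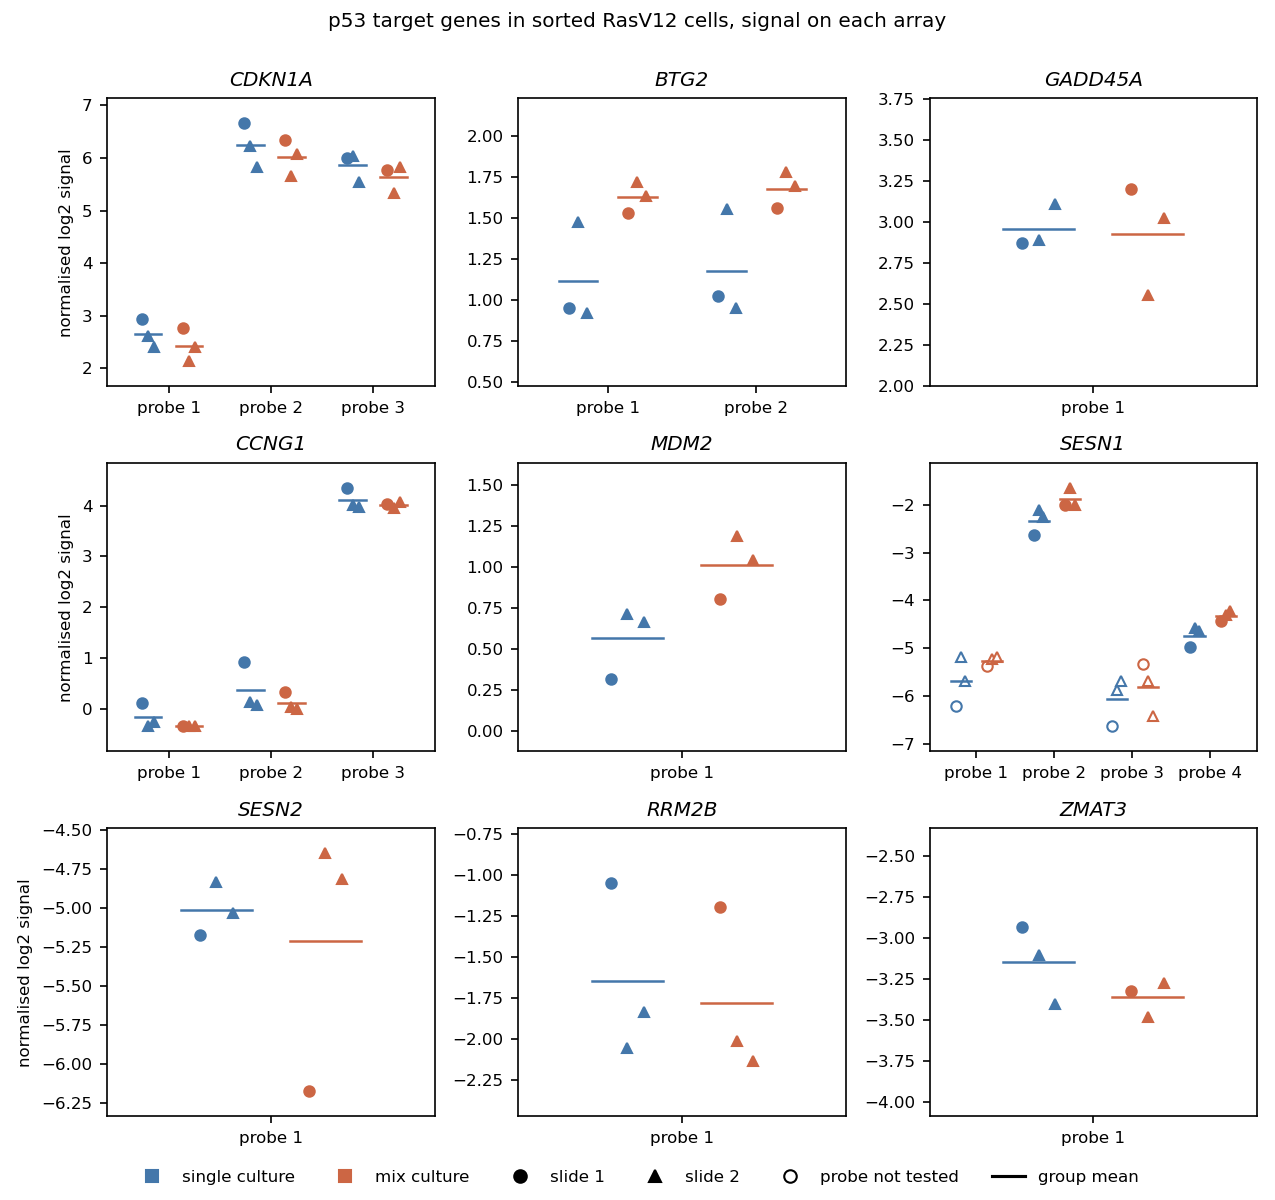
Normalised log2 signal (vertical axis, log2 units relative to each array's 75th percentile) of every probe of the 9 genes on each of the 6 arrays, with the group mean as a bar; circles are slide 1, triangles are slide 2, and open symbols are SESN1 probes 1 and 3, which were not tested. MDM2, both BTG2 probes and SESN1 probes 2 and 4 have every mix culture array above every single culture array, while the groups of the other tested probes overlap.

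The feedback regulator MDM2 encodes the ubiquitin ligase that marks p53 for degradation. Its probe gave a normalised log2 signal of 0.32, 0.71 and 0.67 on the single culture arrays and 0.81, 1.19 and 1.05 on the mix culture arrays, in replicate order. Every mix culture array lay above every single culture array, and in each group the slide 1 array was the lowest. The mean went from 0.57 ± 0.21 to 1.02 ± 0.19 (SD, n = 3 arrays each), a difference of 0.45 on the log2 scale (SE 0.18, 95% interval 0.01 to 0.89, limma adjusted p = 0.555), or 1.37-fold. Same-numbered arrays differed by 0.49, 0.48 and 0.38 for replicates 1, 2 and 3, so the difference had a like size on both slides. The probe itself was higher on slide 2 than on slide 1 by 0.34 (limma adjusted p = 0.0334 with the group in the fit). With the slide as a block the difference was the same 0.45 with an SE of 0.10 (95% interval 0.21 to 0.69, limma adjusted p = 0.0388). With the replicate number as a block it was not called (limma adjusted p = 0.0714). The call with the slide block rested on all 6 arrays, since leaving out any 1 of them gave limma adjusted p values of 0.0779 to 0.14. Since these are bulk RNA samples, more cells of one kind and more RNA per cell cannot be told apart.

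BTG2 encodes an antiproliferative protein that recruits deadenylases to mRNA. Probe 1 gave 0.95, 1.47 and 0.92 in single culture and 1.53, 1.71 and 1.63 in mix culture. The single culture value of replicate 2 lay far above those of the other single culture arrays and just below the lowest mix culture value, so the groups did not overlap but nearly met. Single culture had a mean of 1.12 ± 0.31 and mix culture one of 1.62 ± 0.09 (SD over 3 arrays), a difference of 0.51 (SE 0.20, 95% interval 0.05 to 0.97, limma adjusted p = 0.512). Probe 2, the near copy shown above, gave 1.02, 1.55 and 0.95 against 1.56, 1.78 and 1.69, with the same order of arrays and a difference of 0.50 (SE 0.20, limma adjusted p = 0.543). Probe 1 differed by 0.58 on slide 1 and by 0.48 on slide 2, where replicate 2 contributed 0.24 and replicate 3 contributed 0.71. With the slide block, probe 1 had a limma adjusted p of 0.0855 and probe 2 of 0.1. Without single culture replicate 2 in that fit both passed, with differences of 0.68 and 0.68 and limma adjusted p values of 0.0258 and 0.0287.

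SESN1 and SESN2 encode sestrins, which limit mTORC1 signalling and oxidative damage under stress. SESN1 probe 2 (chr12:65959161-65959220, minus strand) gave -2.64, -2.10 and -2.26 in single culture and -2.0, -1.65 and -2.01 in mix culture. The lowest mix culture array and the highest single culture array were close but did not overlap. The difference was 0.45 (SE 0.20, 95% interval -0.03 to 0.92, limma adjusted p = 0.618), with 0.64 on slide 1 and 0.35 on slide 2, and a limma adjusted p of 0.0897 with the slide block. It was 0.29 without single culture replicate 1, and 0.20 with normexp background correction on the median spot signal. That correction adds an offset of 50 intensity units, which makes log2 differences of dim probes smaller. SESN1 probe 4 (chr12:65958216-65958263, minus strand) was a dim probe at 6.51, 6.98 and 6.86 intensity units in single culture and 10.8, 9.18 and 8.62 in mix culture, on arrays where the lowest signal well above background was 4.19 to 4.48. It gave a difference of 0.42 (SE 0.17, limma adjusted p = 0.551; 0.0526 with the slide block), again with every mix culture array higher. With the same normexp correction the difference was -0.0057, but the added 50 units exceed the probe's own signal and shrink any log2 difference. That fit therefore cannot decide whether the difference depends on the background correction. The remaining SESN1 probes gave no test. Probe 1 (chr12:65960074-65960133) was not well above background on any array, at 2.78 to 5.6 intensity units, and probe 3 (chr12:65969782-65971757) was well above it on mix culture replicate 1 alone, at 5.80.

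The SESN2 probe (chr2:72153341-72153818, minus strand) was also near background. Its signal was 5.69, 5.84 and 5.27 intensity units in single culture and 3.22, 7.20 and 5.71 in mix culture, where replicate 1 was not well above background. That array alone lay below the single culture values on the normalised scale. The difference was -0.20 (SE 0.39, 95% interval -1.13 to 0.73, limma adjusted p = 0.965), made up of -1.0 on slide 1 and 0.20 on slide 2, and it was 0.28 without mix culture replicate 1. The interval therefore allows a change of either sign, and it was the widest of the 15.

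CDKN1A encodes p21, the inhibitor of cyclin-dependent kinases through which p53 halts cells before S phase. Its 3 probes were all bright, with intensities from 791 to 20854 units. Probe 1 gave 2.93, 2.61 and 2.41 in single culture and 2.77, 2.13 and 2.40 in mix culture, so the groups overlapped. The difference was -0.22 (SE 0.23, 95% interval -0.75 to 0.31, limma adjusted p = 0.903). Probe 2 (chr12:5755048-5755107) gave 6.66, 6.22 and 5.83 against 6.34, 5.66 and 6.07, a difference of -0.21 (SE 0.27, 95% interval -0.85 to 0.42). Probe 3 (chr12:5754761-5754820) gave 6.0, 6.03 and 5.55 against 5.77, 5.34 and 5.83, a difference of -0.21 (SE 0.21, 95% interval -0.72 to 0.29). On all 3 probes mix culture replicate 2 was the lowest of the 6 arrays. In replicate 3 the difference was -0.0083 on probe 1 but 0.24 and 0.29 on probes 2 and 3. The sign thus did not hold over same-numbered arrays, but this rests on the numbering of mix culture replicates 2 and 3, which is uncertain. Within slides, where that numbering plays no part, all differences were below 0. For probes 1, 2 and 3 they were -0.17, -0.32 and -0.23 on slide 1 and -0.24, -0.16 and -0.20 on slide 2. With the slide block the intervals narrowed to -0.50 to 0.06 on probe 1, -0.57 to 0.14 on probe 2 and -0.61 to 0.18 on probe 3. Each of them includes 0. Whether CDKN1A and MDM2 differ in their change was not tested.

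GADD45A encodes a small stress protein that binds PCNA and the CDK1 complex. Its probe (chr6:77393192-77393251, minus strand) gave 2.87, 2.89 and 3.11 in single culture and 3.20, 2.55 and 3.02 in mix culture, with the highest and the lowest of the 6 arrays both in mix culture. The difference was -0.03 (SE 0.21, 95% interval -0.52 to 0.46, limma adjusted p = 0.987), with 0.33 on slide 1 and -0.21 on slide 2. A second probe on the same chromosome and strand (chr6:77393544-77393603), which the design describes as GADD45 alpha but does not name so and which the rule left out, gave -0.16 (SE 0.23, limma adjusted p = 0.947). Its differences within slides, 0.38 on slide 1 and -0.43 on slide 2, had the same signs as those of the named probe.

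CCNG1 encodes cyclin G1, which joins a PP2A phosphatase to MDM2 and so acts in the p53 feedback loop. Probe 1 (chr4:47804598-47804657) gave 0.12, -0.34 and -0.26 in single culture and -0.35, -0.34 and -0.33 in mix culture. Probes 2 (chr4:47801768-47801827) and 3 (chr4:47800925-47800984) followed the same pattern, with single culture replicate 1 the highest of the 6 arrays on each of the 3. The differences were -0.18 (SE 0.17), -0.26 (SE 0.26) and -0.09 (SE 0.16), with limma adjusted p values of 0.89 to 0.96. On slide 1 they were -0.47, -0.60 and -0.32, and on slide 2 they were -0.04, -0.09 and 0.02, so most of each difference came from the pair on slide 1. A further probe (chr4:47806505-47806564) that the design describes as cyclin G1 under another identifier, outside the rule and singled out after its values were seen, had the opposite sign. It gave -0.16, -0.94 and -0.92 in single culture and 0.50, -0.57 and -0.58 in mix culture, a difference of 0.46 (SE 0.36, limma adjusted p = 0.849; 0.0467 with the slide block and 0.087 with the replicate block). Probes described as cyclin G1 thus disagreed in sign, and which transcript each reads was not tested.

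RRM2B encodes the p53-induced subunit of ribonucleotide reductase, which supplies deoxynucleotides for repair. Its probe (chr13:3799261-3799320) gave -1.05, -2.05 and -1.84 in single culture and -1.20, -2.01 and -2.14 in mix culture. The slides, not the cultures, stood apart: slide 2 minus slide 1 was -0.89 (limma adjusted p = 0.00082), while the culture difference was -0.13 (SE 0.35, 95% interval -0.95 to 0.68, limma adjusted p = 0.975). With the slide block its interval was -0.39 to 0.12. ZMAT3 encodes a zinc finger protein that binds RNA. Its probe (chr34:12535085-12535144) gave -2.93, -3.10 and -3.40 against -3.32, -3.48 and -3.28, with overlapping groups and a difference of -0.21 (SE 0.18, 95% interval -0.63 to 0.20, limma adjusted p = 0.856).

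**Figure D2:**
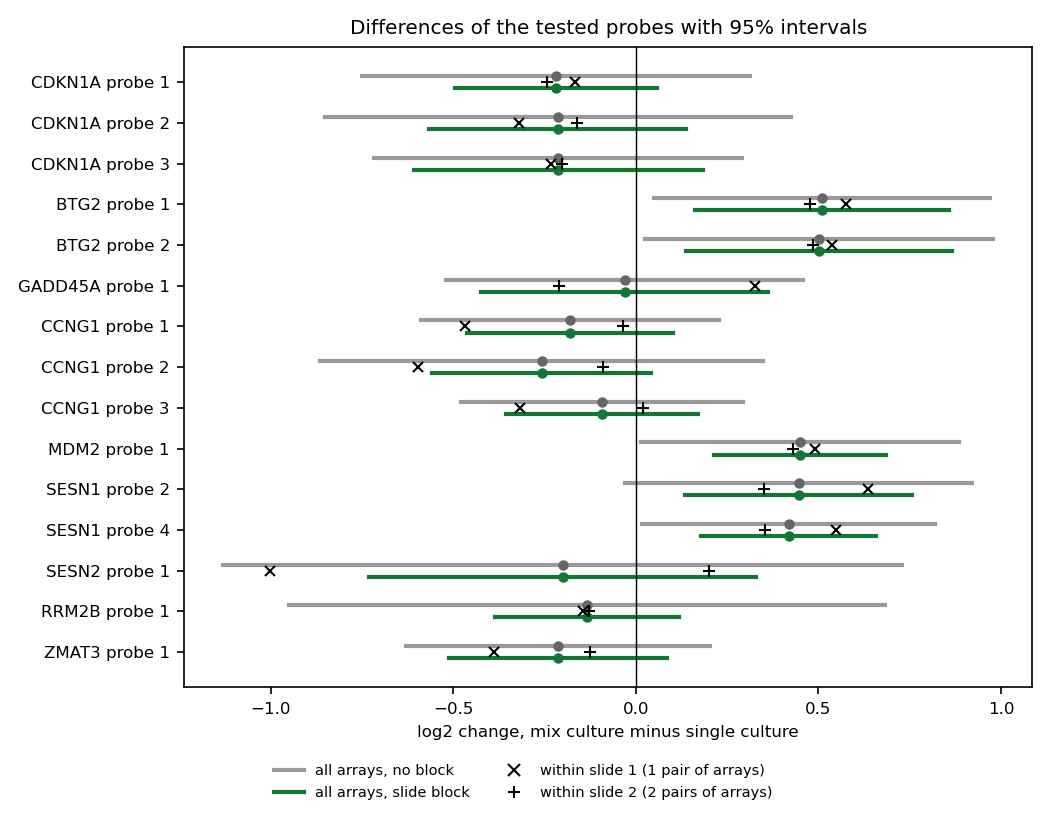
Log2 difference between mix culture and single culture (horizontal axis) for the 15 tested probes, with the 95% interval from limma without a block (grey) and with the slide as a block (green); crosses and plus signs are the differences within slide 1 and slide 2. The green intervals of MDM2, BTG2 and SESN1 lie above 0 before adjustment for the number of probes, and MDM2 is the one called after it, while those of the other 6 genes include 0.

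Across the 15 probes, 12 had the same sign of difference on both slides. The exceptions were GADD45A, CCNG1 probe 3 and SESN2. Slide 2 and slide 1 differed for 6 of the 15 probes (limma, adjusted over all tested probes, with the group in the fit), where 47.2% of all tested probes did. CDKN1A probes 1 and 2, CCNG1 probe 2 and RRM2B were lower on slide 2, and MDM2 and SESN2 were higher. For 8 of the 15 probes the slide difference was larger than the culture difference. None of those 8 belonged to MDM2, BTG2, SESN1 or ZMAT3, and CDKN1A probe 3 was not among them. Among the 4 arrays of slide 2, mix culture replicate 2 had the highest signal for MDM2, both BTG2 probes, SESN1 probe 2 and SESN2. It had the lowest for all CDKN1A probes, GADD45A, CCNG1 probe 3 and ZMAT3. This array was thus at an end of the range for most of the tested probes, and at neither end for CCNG1 probes 1 and 2, SESN1 probe 4 and RRM2B.

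**Figure D3:**
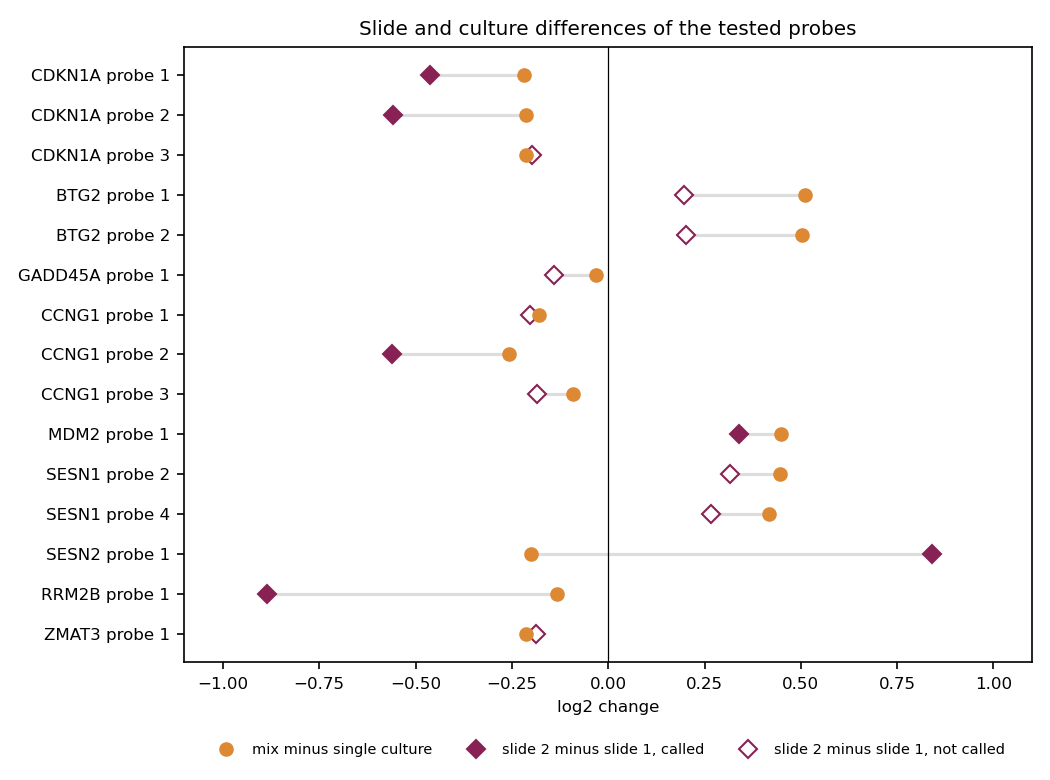
Difference between cultures (orange circles, mix minus single) and between slides (purple diamonds, slide 2 minus slide 1, filled where limma called it) on the log2 scale for the 15 tested probes. The circle lies farther from 0 than the diamond for MDM2, BTG2 and SESN1, and slightly so for CDKN1A probe 3 and ZMAT3. RRM2B and SESN2 have the largest slide differences, of -0.89 and 0.84.

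MDM4, the relative of MDM2 that binds p53 without degrading it, gave 0.02 (SE 0.17) and 0.10 (SE 0.15) on its 2 probes. PCNA, the replication clamp that p21 binds, gave 0.35 (SE 0.20, limma adjusted p = 0.758) and 0.13 (SE 0.24).

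Other genes of the pathway were grouped in 6 lists, with 1 probe a gene, the brightest. Of 119 listed genes 94 were on the array and 90 were tested. None was called by limma without a block, where 0.942% of all 9876 tested symbols were, and 7 (7.78%) had an unadjusted p under 0.05, where 8.56% of all tested symbols had one. With the slide block 7 were called, 3 higher and 4 lower, where 7.52% of all tested symbols were called. The median difference was -0.07 over the 90 genes, -0.09 over the 9 p53 target genes counted in the same way and -0.05 over all tested symbols.

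Of 13 p53 regulators 7 were above and 6 below 0, with a median of 0.01 and no call with the slide block. TP53BP1, a DNA damage adaptor, differed by 0.40 and TP73, a p53 relative, by -0.37. Of 20 other p53 targets 11 were above and 9 below 0, with a median of 0.03. DRAM1, an autophagy regulator, differed by 0.70 (SE 0.20) and was higher with the slide block (limma adjusted p = 0.0449). SFN, encoding 14-3-3 sigma, which holds cells in G2, differed by -0.67 (SE 0.42) and was lower with it (limma adjusted p = 0.041). With the replicate block neither was called (limma adjusted p = 0.0552 for DRAM1 and 0.0712 for SFN). BAX, the apoptosis effector, had a difference of -0.67 (SE 0.31) that was not called with the slide block (limma adjusted p = 0.167).

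Of 12 tested relatives of the target genes, such as other GADD45, BTG and cyclin G genes, 5 were above and 7 below 0, with a median of -0.07. GADD45B, a GADD45A relative induced by NF-kB and TGF-beta signalling, gave 2.21, 2.42 and 2.70 in single culture and 2.91, 3.46 and 3.33 in mix culture. Its groups did not overlap, and the difference of 0.79 (SE 0.21, limma adjusted p = 0.256) was called with the slide block (limma adjusted p = 0.00747). TOB1, a BTG family member, differed by 0.77 (SE 0.45) and CCNG2, encoding cyclin G2, by -0.38 (SE 0.24), without a call.

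Of 15 cyclins, cyclin-dependent kinases and other inhibitors of them 5 were above and 10 below 0, with a median of -0.14. Of the D-type cyclins, which drive entry into the cell cycle, CCND1 and CCND2 were called with the slide block, both lower, and CCND3 was not (-0.20, limma adjusted p = 0.332). CCND1 gave 3.64, 4.48 and 4.45 in single culture and 2.92, 3.95 and 3.52 in mix culture, a difference of -0.73 (SE 0.33, limma adjusted p = 0.628; 0.0161 with the slide block). CCND2 differed by -0.55 (SE 0.23; limma adjusted p = 0.0249 with the slide block). CCNE2, encoding cyclin E2, had the opposite sign, at 0.67 (SE 0.20; limma adjusted p = 0.0502 with the slide block). Among genes that p53 lowers through p21 and the DREAM complex, a repressor of cell cycle genes, 5 of 20 were above and 15 below 0, with a median of -0.10. None was called with the slide block, and AURKA (-0.38) and BUB1 (-0.36), which serve mitosis, had the largest differences.

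Stress factors that can induce some of the 9 genes without p53 had 5 of 10 above and 5 below 0, with a median of -0.02. ATF3, a stress-induced transcription factor, had the largest difference of the 90 genes. It gave 0.03, 0.70 and 0.35 in single culture and 1.26, 1.4 and 1.3 in mix culture, with no overlap. The difference was 0.96 (SE 0.20, limma adjusted p = 0.119; 0.00663 with the slide block). TRIB3, a pseudokinase induced by ATF4, differed by -0.90 (SE 0.32; limma adjusted p = 0.00812 with the slide block), and MYC, the proliferation factor, by -0.43 (SE 0.17) without a call.

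**Figure D4:**
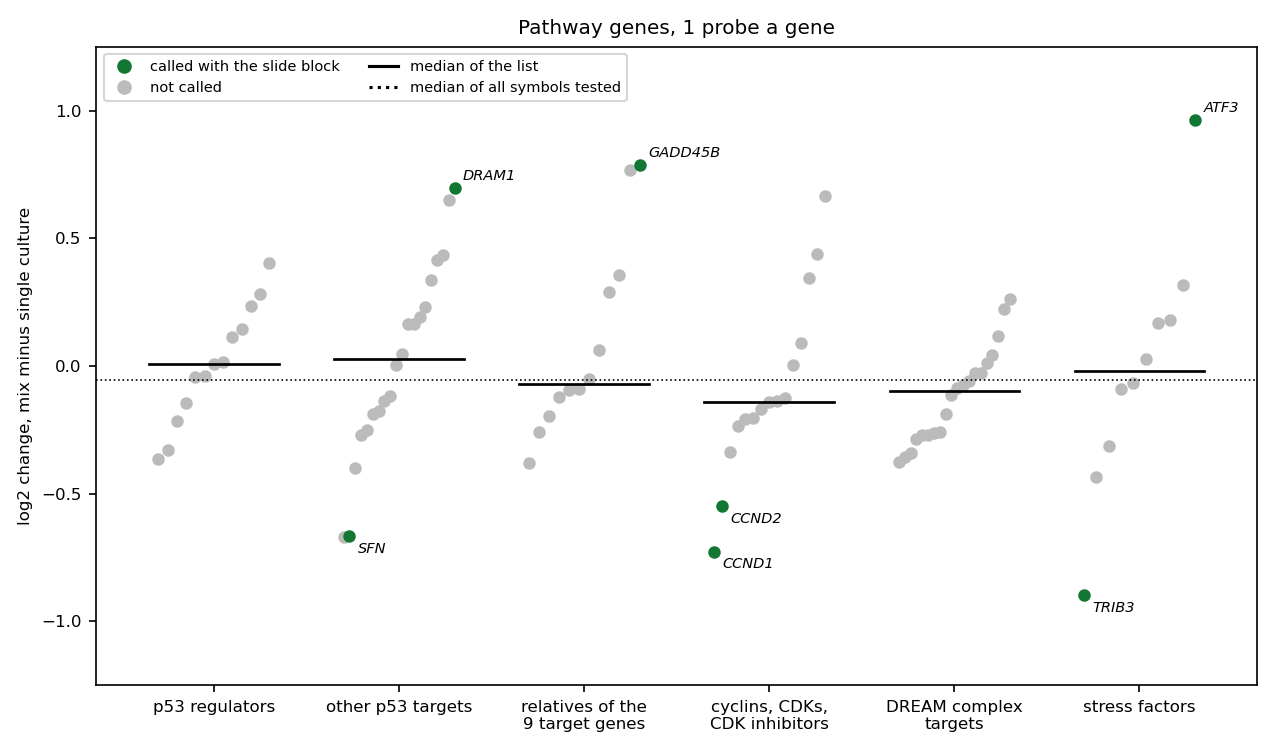
Log2 difference between mix culture and single culture (vertical axis) for the tested genes of the 6 lists, 1 point a gene ordered by value, with the median of each list as a bar and that of all tested symbols as a dotted line; green points were called with the slide block. The medians lie between -0.14 and 0.03 around the -0.05 of all symbols, and the called genes are ATF3, GADD45B and DRAM1 above 0 and TRIB3, CCND1, SFN and CCND2 below it.

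The genes whose signal over the 6 arrays was most like that of CDKN1A probe 2, among 9606 symbols well above background on all arrays, were FAM181A, GREM1, TULP2, TKTL1 and PRDM2, with Pearson correlations of 0.994 to 0.987. Their own differences between cultures were -0.20 to -0.12. Those most like MDM2 were UNC13B, EN1, HOXA6, LRG1 and RNF139, with correlations of 0.997 to 0.992. Their differences ranged from 0.09 for RNF139 to 1.06 for EN1, and none was called without a block. These correlations describe 6 arrays that share 2 slides and 2 cultures, and no test was made of them.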

How the data were processed

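RNA of GFP-positive cells was labelled with Cy3 and hybridised to single-colour Agilent Canine (V2) 4x44K arrays. The authors deposited 1 scanner file per array with each spot's background-subtracted intensity (linear), which per the file headers came from Agilent Feature Extraction 11.5.1.1 (slide 1, 3 µm scan) or 12.1.1.1 (slide 2, 5 µm scan). They also deposited a table of log2 values, whose steps are not given in the sources used here; its probes were centred within each slide. Its columns for mix culture replicates 2 and 3 matched each other's scanner file (correlations of 0.999 and 0.993, against 0.457 and 0.459 with their own), which leaves the groups as they are. Replicates 2 and 3 of mix culture are named here after the scanner files.

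Outlier spots (5 to 9 per array) were dropped, spots of a probe averaged, and each array's 75th percentile of log2 intensity subtracted. limma 3.58.1 (R 4.3.3, two-sided) was fitted over the 26623 probes that were well above background on all arrays of 1 group or both, and a probe was called where its Benjamini-Hochberg adjusted p was below 0.05. The study's methods name an unpaired t-test for the groups. Whether the values it compared had been centred by slide is not stated. The main fit here had no block. Same-numbered arrays deviated together from their group means, with correlations of 0.801 for replicate 1, 0.53 for replicate 2 and 0.572 for replicate 3. Arrays of slide 2 with different numbers did so as much (0.61 and 0.632). The correlations thus group the arrays by slide and do not show a pairing within slide 2. The replicate block and the differences by replicate take the numbers as pairs, an assumption that these data do not bear out for replicates 2 and 3.

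The genes, lists and tests were chosen with earlier results of these data known. Named were all probes of the 9 genes, in each list every gene called without a block and the 3 others with the largest difference, the 5 symbols most like CDKN1A and MDM2, and MDM4, PCNA, HRAS and CTNNB1. Some genes that the rule selects are not reported here. Positions are on CanFam3.1 as the design gives them, without exon or UTR annotation. With 6 arrays, their number limits the precision.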

Additional observations from a re-analysis of the deposited data

How the results depend on the processing

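The number of target gene probes called was 0 without a block, 0 with the replicate block (where 1399 of all probes were called), 0 with each array left out in turn, and 1 with the slide block (MDM2). From the authors' table, centred within slides, 3 were called (MDM2 and SESN1 probes 2 and 4), where 15.3% of all probes were. That fit had no slide term, so it did not count the slide means already removed, which makes its SEs too small. The SE of MDM2 was 0.072 in it, against 0.102 with the slide block. Combinations with the slide block were chosen after seeing the data. The slide block gave 2 calls (MDM2 and SESN1 probe 4) with median scaling, with quantile normalization and with a filter that asked for all 6 arrays to be well above background. Of all probes, 7.22%, 6.91% and 7.22% were then called. It gave 2 with normexp (MDM2 and BTG2 probe 1), where 8.33% of all were called. Without single culture replicate 2 it gave 2 (both of BTG2), where 5.63% of all were. It gave 0 with no filter, where 1.73% of all were, and 0 with any other array left out, where 2.57% to 4.2% were. MDM2 had limma adjusted p values of 0.0178 to 0.14 in these fits. Its value stayed between 0.33 and 0.55 when 1 array was left out without a block.

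For the lists, the slide block gave 2 calls among other p53 targets, 1 among relatives, 2 among cyclins and 2 among stress factors. Of all tested symbols 7.52% were called with it. The replicate block gave 1 among relatives, 2 among cyclins and 2 among stress factors, where 5.25% of all probes were called. Slide 2 alone gave 1 and 2 for relatives and stress factors, where 3.73% of all probes were. Shares of all probes are not a like measure, since the lists hold 1 probe a gene. The authors' table gave 1 call among regulators, 5 among other targets, 4 among relatives, 3 among cyclins, 2 among DREAM complex genes and 3 among stress factors, beside the same 15.3% of all probes. These calls carry the same limit, as the fit of slide-centred values had no slide term. With 1 array left out and no block, each list kept 0 calls.

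Signs turned for 5 probes with no call in any setting, and for SESN1 probe 4. GADD45A was 0.014 with quantile normalization and 0.0064 with normexp (each with and without the slide block) and 0.013 in the authors' table. It ranged from -0.17 to 0.16 with 1 array left out, and with the slide block it was 0.084 without replicate 3 of single culture and 0.16 without replicate 2 of mix culture. With 1 array left out, CCNG1 probe 2 ranged from -0.41 to 0.013, CCNG1 probe 3 from -0.16 to 0.026, SESN2 from -0.48 to 0.28 and RRM2B from -0.43 to 0.16, with the positive end reached without an array of slide 1. On slide 2 alone, and with the slide block without either array of slide 1, CCNG1 probe 3 was 0.020 and SESN2 was 0.20. SESN1 probe 4 was -0.0057 with normexp, with or without the slide block, where the added offset of 50 units shrinks log2 differences of dim probes. The causes were not tested. The dim probes of SESN1 and SESN2 lie close to the lowest signals well above background (4.19 to 4.48 intensity units), which limits what they can show.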
